A study of Mus musculus with 22 samples.

Results

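The mRNAs of 10 glycolysis enzymes were examined for footprints of hnRNP A1 in mouse spinal cord. The genes were Hk1, Pfkm, Pfkp, Aldoa, Tpi1, Gapdh, Pgk1, Eno1, Eno2 and Ldhb, which are 10 of 55536 annotated mouse genes and belong to the 9195 genes footprinted in at least 2 of the 10 mice. A footprint counted for a gene when it overlapped the annotated span of the gene on GRCm38 by at least 1 nt, and 307 of 136207 footprints did so. In CLIPseq, proteins are crosslinked to RNA with UV light, the RNA held by a chosen protein is recovered with an antibody, and it is then sequenced. A footprint is a genome interval at which assembled sequence of the immunoprecipitated RNA aligned and which was absent from the matched input and from the pooled IgG control. All animals were female wild-type C57Bl/6 mice, and the anti-hnRNP A1 antibody is given as clone 9H10 by the labels. The 3 naïve mice were not immunized. The 7 mice with experimental autoimmune encephalomyelitis (EAE), an inflammatory demyelinating disease of the central nervous system, were immunized with MOG(35-55), a myelin peptide, in complete Freund's adjuvant and also received pertussis toxin. The treatment protocol puts immunization at 12 weeks of age and the design text at 8 weeks, and the mice were taken 15 days after clinical onset. EAE mice 3, 4 and 7 had mild disease, with clinical scores of 1 to 1.5, and EAE mice 1, 2, 5 and 6 had severe disease, with scores of 2.5 to 3. Each mouse gave 1 immunoprecipitation and counted as 1 replicate.

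Glycolysis splits glucose into pyruvate and yields ATP without oxygen. Hexokinase traps glucose in the cell as a phosphate, phosphofructokinase commits it to the pathway, aldolase and triose phosphate isomerase produce the 3-carbon sugars, and the later enzymes harvest ATP and NADH. Neurons, astrocytes and oligodendrocytes all express the pathway, and lactate made from pyruvate by lactate dehydrogenase can pass between glia and axons. HnRNP A1 is an abundant, mainly nuclear RNA binding protein that regulates splicing and other steps of mRNA metabolism, and UAG is the core of its known recognition sequence.

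The footprint lists differed widely in length between mice. The lists of the naïve mice held 17119 to 17494 footprints and those of the mild EAE mice 9751 to 24433. In severe EAE, EAE mouse 5 had 31870 footprints, the longest list, whereas EAE mice 1, 2 and 6 had 2670, 209 and 673. Values of the severe EAE group therefore rest mainly on EAE mouse 5. The paper reports similar sequencing depth and similar amounts of RNA bound to hnRNP A1 across its samples. It reads the fewer targets in severe EAE as a loss of hnRNP A1 binding. Why the lists of EAE mice 1, 2 and 6 were short was not tested. The files hold positions only, so the number of reads behind a footprint is unknown. Since the inputs were not analysed here, more hnRNP A1 on an mRNA and more of that mRNA in the tissue cannot be told apart, nor can fewer cells of a type and less RNA per cell. Markers of the tissue were present. Of 5 neuronal, 5 oligodendrocyte and 4 astrocyte markers, 4 to 5, 4 to 5 and 2 to 3 were footprinted in every naïve and mild EAE mouse. EAE mice 1, 2 and 6 had 1, 0 and 0 of the neuronal markers. They had 3, 1 and 1 of the oligodendrocyte markers and 3, 0 and 1 of the astrocyte markers. The neuronal markers had 2932 to 4172 nt covered in naïve mice and 987 to 2425 nt in mild EAE, so that every mild EAE mouse lay below every naïve mouse. These marker lengths were not scaled to the list of the mouse. The lists of EAE mice 3 and 4 covered 1548566 and 1156473 nt in all, and those of naïve mice 2055065 to 2219869 nt. The oligodendrocyte markers (1653 to 6175 against 2256 to 5495 nt) and astrocyte markers (1295 to 3198 against 2333 to 4853 nt) overlapped between these groups. Leukocyte and microglia markers (Ptprc, Cd74, Csf1r, Itgam, Lyz2 and Cd3e) had 0 of 6 footprinted in each of the 3 naïve mice, 3 to 5 of 6 in mild EAE, with 652 to 2192 nt covered in all, and 0 to 4 of 6 in severe EAE, with 0 to 3271 nt. Cd3e, a marker of T cells, was at 0 in all 10 mice.

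The stretches covered in the most mice lay in the coding sequence of the phosphofructokinase genes. The 8 stretches below are those that the most mice covered from end to end, out of all stretches shared within a group by 2 or more mice, with ties resolved by length. They are written 5′ to 3′ on the strand of the gene, as DNA read from the GRCm38 genome, with TAG (UAG in the RNA) and AGGT (AGGU) in capitals. A 65-nt exon of Pfkm (exon 12 of 23) was covered whole in 7 mice, namely every naïve and every mild EAE mouse and EAE mouse 5. A 65-nt exon of Pfkp (exon 11 of 22) was covered whole in 6 mice, 2 of each group. The other 6 were covered in 4 to 6 mice.
Pfkm exon 12, chr15:98125026-98125090, plus strand: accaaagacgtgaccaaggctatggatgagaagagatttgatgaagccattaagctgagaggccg
Pfkp exon 11, chr13:6603399-6603463, minus strand: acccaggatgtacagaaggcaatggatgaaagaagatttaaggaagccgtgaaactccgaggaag
Pfkm exon 13, chr15:98125550-98125572, plus strand: gagcttcatgaacaactgggagg
Pfkm exon 21, chr15:98131419-98131508, plus strand: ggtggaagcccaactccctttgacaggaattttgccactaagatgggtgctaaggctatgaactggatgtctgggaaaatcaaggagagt
Pfkp exon 10, chr13:6604956-6605004, minus strand: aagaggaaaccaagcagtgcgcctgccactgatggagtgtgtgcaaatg
Ldhb exon 4, chr6:142498657-142498678, minus strand: attactctgtgacagccaactc
Pfkm exon 11, chr15:98123796-98123921, plus strand: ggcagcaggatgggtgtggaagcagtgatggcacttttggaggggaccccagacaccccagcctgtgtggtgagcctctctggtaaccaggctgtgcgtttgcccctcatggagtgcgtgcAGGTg
Pfkm exon 20, chr15:98129737-98129833, plus strand: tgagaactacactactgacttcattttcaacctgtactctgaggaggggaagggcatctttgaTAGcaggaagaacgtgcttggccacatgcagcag

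None of the 6 stretches covered from end to end in 5 or more mice held UAG or AGGU on the strand of the gene. Pfkm exon 20 held 1 UAG and Pfkm exon 11 held 1 AGGU. That AGGU lies at the 3′ end of exon 11. All 7 mice with a footprint on exon 11 covered this end, though only 4 covered the exon whole. Among 529431 windows of 65 nt tiled over the coding sequence of 1 transcript per protein-coding gene, 29.4% held UAG and 18.9% AGGU. The stretches differ in length. Windows of 22 nt, the length of the Ldhb stretch, held UAG in 10.7% and AGGU in 6.27%. Those of 90 nt, the length of the Pfkm exon 21 stretch, held them in 37.8% and 25.5%. Over the 10 mRNAs, the 12917 nt covered in at least 1 mouse held 61 UAG, or 4.72 per 1000 nt, and the 10447 nt never covered held 84, or 8.04 per 1000 nt. AGGU stood at 2.63 and 3.45 per 1000 nt. UAG is a stop codon and cannot be read in frame within a coding sequence, and 10220 of the covered nt were coding, so the 2 densities compare sequence of different kinds. The letters were searched on the strand of the gene alone, and TAG and AGGT can overlap by 2 letters.

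The 2 exons covered whole in the most mice are counterparts of each other. Phosphofructokinase in mammals is encoded by a muscle (Pfkm), a platelet (Pfkp) and a liver (Pfkl) gene, and exons 9 to 12 of Pfkm have the same lengths, 96, 93, 126 and 65 nt, as exons 8 to 11 of Pfkp and of Pfkl. Pfkm exon 12 matched Pfkp exon 11 at 45 of 65 positions (69.2%) and Pfkl exon 11 at 48 (73.8%). No shared stretch of at least 20 nt in Pfkm (20 stretches) or Pfkp (7 stretches) had a near-identical copy elsewhere in the genome, which was defined as at least 90% identity over at least 90% of its length. The Pfkl counterpart, added for comparison after the values were seen, was covered whole in 2 mice, 1 naïve and 1 with mild EAE.
Pfkl exon 11, chr10:77994136-77994200, minus strand: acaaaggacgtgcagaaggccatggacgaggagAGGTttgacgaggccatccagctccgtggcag

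**Figure D1:**
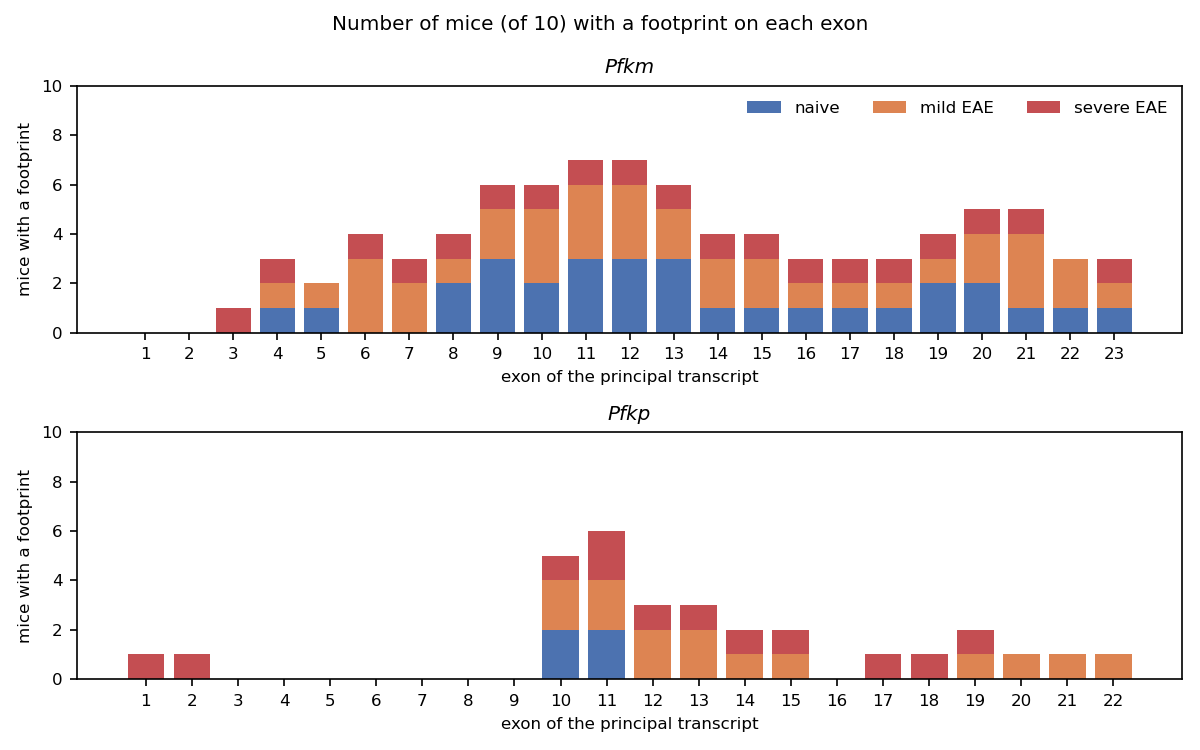
Number of mice, of 10, with a footprint on each exon of the principal transcript of Pfkm (23 exons) and Pfkp (22 exons), with naïve, mild EAE and severe EAE mice stacked. Pfkm exons 11 and 12 reach 7 mice and Pfkp exon 11 reaches 6, and exons 3 to 9 of Pfkp have none.

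Within Pfkm, exons 9 to 13 formed the most widely shared run, with footprints in 6, 6, 7, 7 and 6 mice. A second group lay on exons 20 and 21, with 5 mice each. Over the Pfkm mRNA, 520 nt were covered in at least 5 mice, 272 nt in at least 6 and 104 nt in 7. In Pfkp, 114 nt were covered in at least 5 mice and 65 nt in 6, and all of these lay on exons 10 and 11. Although the exon lengths match, the genes differed upstream: Pfkm exons 9 and 10 had footprints in 6 mice each, and their counterparts in Pfkp, exons 8 and 9, had none in any mouse. In Pfkl, those exons had footprints in 3 mice and in 0 mice, and exons 10, 11 and 12 in 2, 2 and 1.

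Footprints on the glycolysis genes lay mostly in coding sequence. By the midpoint of the footprint, 259 of 307 lay in coding sequence (84.4%, Wilson 95% interval 79.9 to 88.0), 26 in a 3′ UTR, 13 in a 5′ UTR, 5 in an exon of a non-coding transcript and 4 in an intron. The interval covers counting error only, and footprints of 1 mouse share their library. The coding share was 84.7% in naïve mice (75.6 to 90.8, 85 footprints), 87.1% in mild EAE (80.3 to 91.8, 132 footprints) and 80% in severe EAE (70.6 to 87.0, 90 footprints), and the intervals overlapped. Without EAE mouse 5, the severe EAE share was 57.1%, from 7 footprints. Among footprints on all protein-coding genes, the coding share ran from 47.3% to 64.0% in the naïve mice. It ran from 68.3% to 82.5% in mild EAE and from 36.8% to 67.4% in severe EAE. On the 10 genes the share was above that on all protein-coding genes in every naïve and mild EAE mouse and in EAE mouse 5. It was not above in EAE mice 1 and 6, which had 5 and 2 footprints on the 10 genes. EAE mouse 2 had none. The 4 intronic footprints all came from naïve mouse 2 and lay in Hk1 (1), Pfkp (2) and Ldhb (1). On all protein-coding genes, 28.5% to 43.1% of footprints were intronic in the naïve mice and 12.0% to 25.0% in mild EAE.

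**Figure D2:**
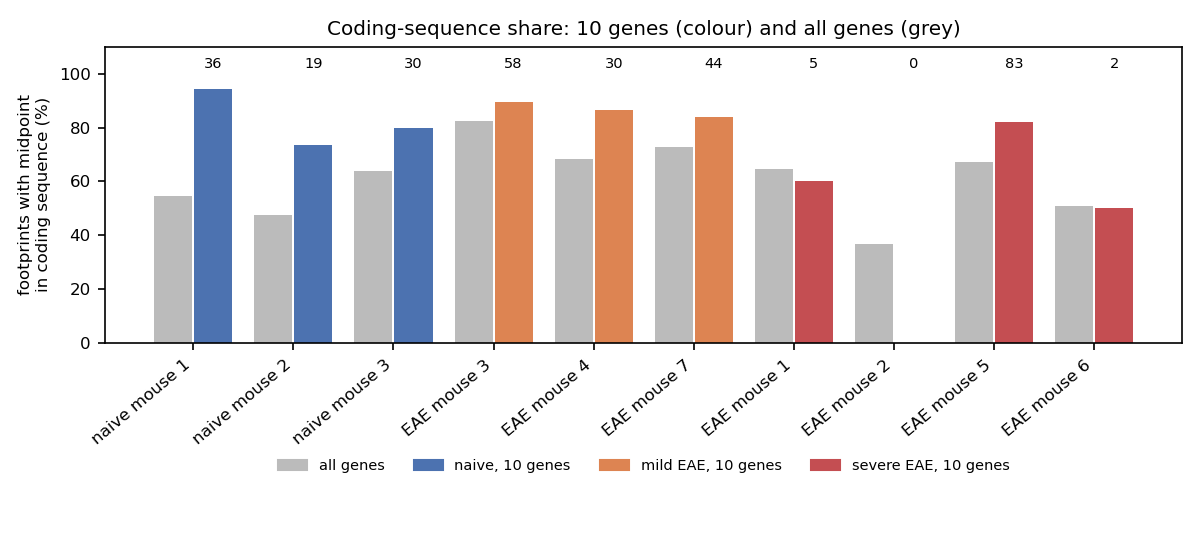
Percent of footprints whose midpoint lies in coding sequence, per mouse, for all protein-coding genes (grey, labelled all genes) and for the 10 glycolysis genes (colored by group), with the number of footprints on the 10 genes above each pair of bars. The colored bar is the taller one in the 3 naïve mice, the 3 mild EAE mice and EAE mouse 5.

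Per length, 66.5% of the 15372 coding nt of the 10 principal mRNAs were covered in at least 1 mouse, against 36.1% of the 6125 nt of 3′ UTR and 25.9% of the 1867 nt of 5′ UTR. The coding sequences of Eno2 and Pfkm were covered nearly throughout, with 98.9% and 89.5% of their nt reached in at least 1 mouse, and those of Gapdh, Hk1 and Pfkp least, with 41.8%, 45.9% and 46.3%. The order differed in the 3′ UTR, where 100% of the short Gapdh 3′ UTR and 98.2% of that of Eno1 were reached, but 0 nt of the 3′ UTRs of Pgk1 (423 nt) and Pfkp (1695 nt). Footprint ends followed the exons. Of the 259 coding footprints, 250 (96.5%) had an end exactly at an exon edge of the principal transcript, and 69 of the 307 footprints matched a whole exon. For coding footprints on all protein-coding genes, the share with an end at an exon edge was 46.4% to 85.3% across the mice. Adjacent exons that were both covered up to their shared junction in the same mouse were seen 142 times, over 73 of the 123 exon junctions of the 10 genes, and 58 of these were in Pfkm, where 20 of 22 junctions were seen. Contigs were aligned in spliced mode, which splits an RNA at each junction, so adjacent footprints of a mouse can come from 1 contig. Footprints were 17 to 365 nt long, with a median of 81 nt.

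**Figure D3:**
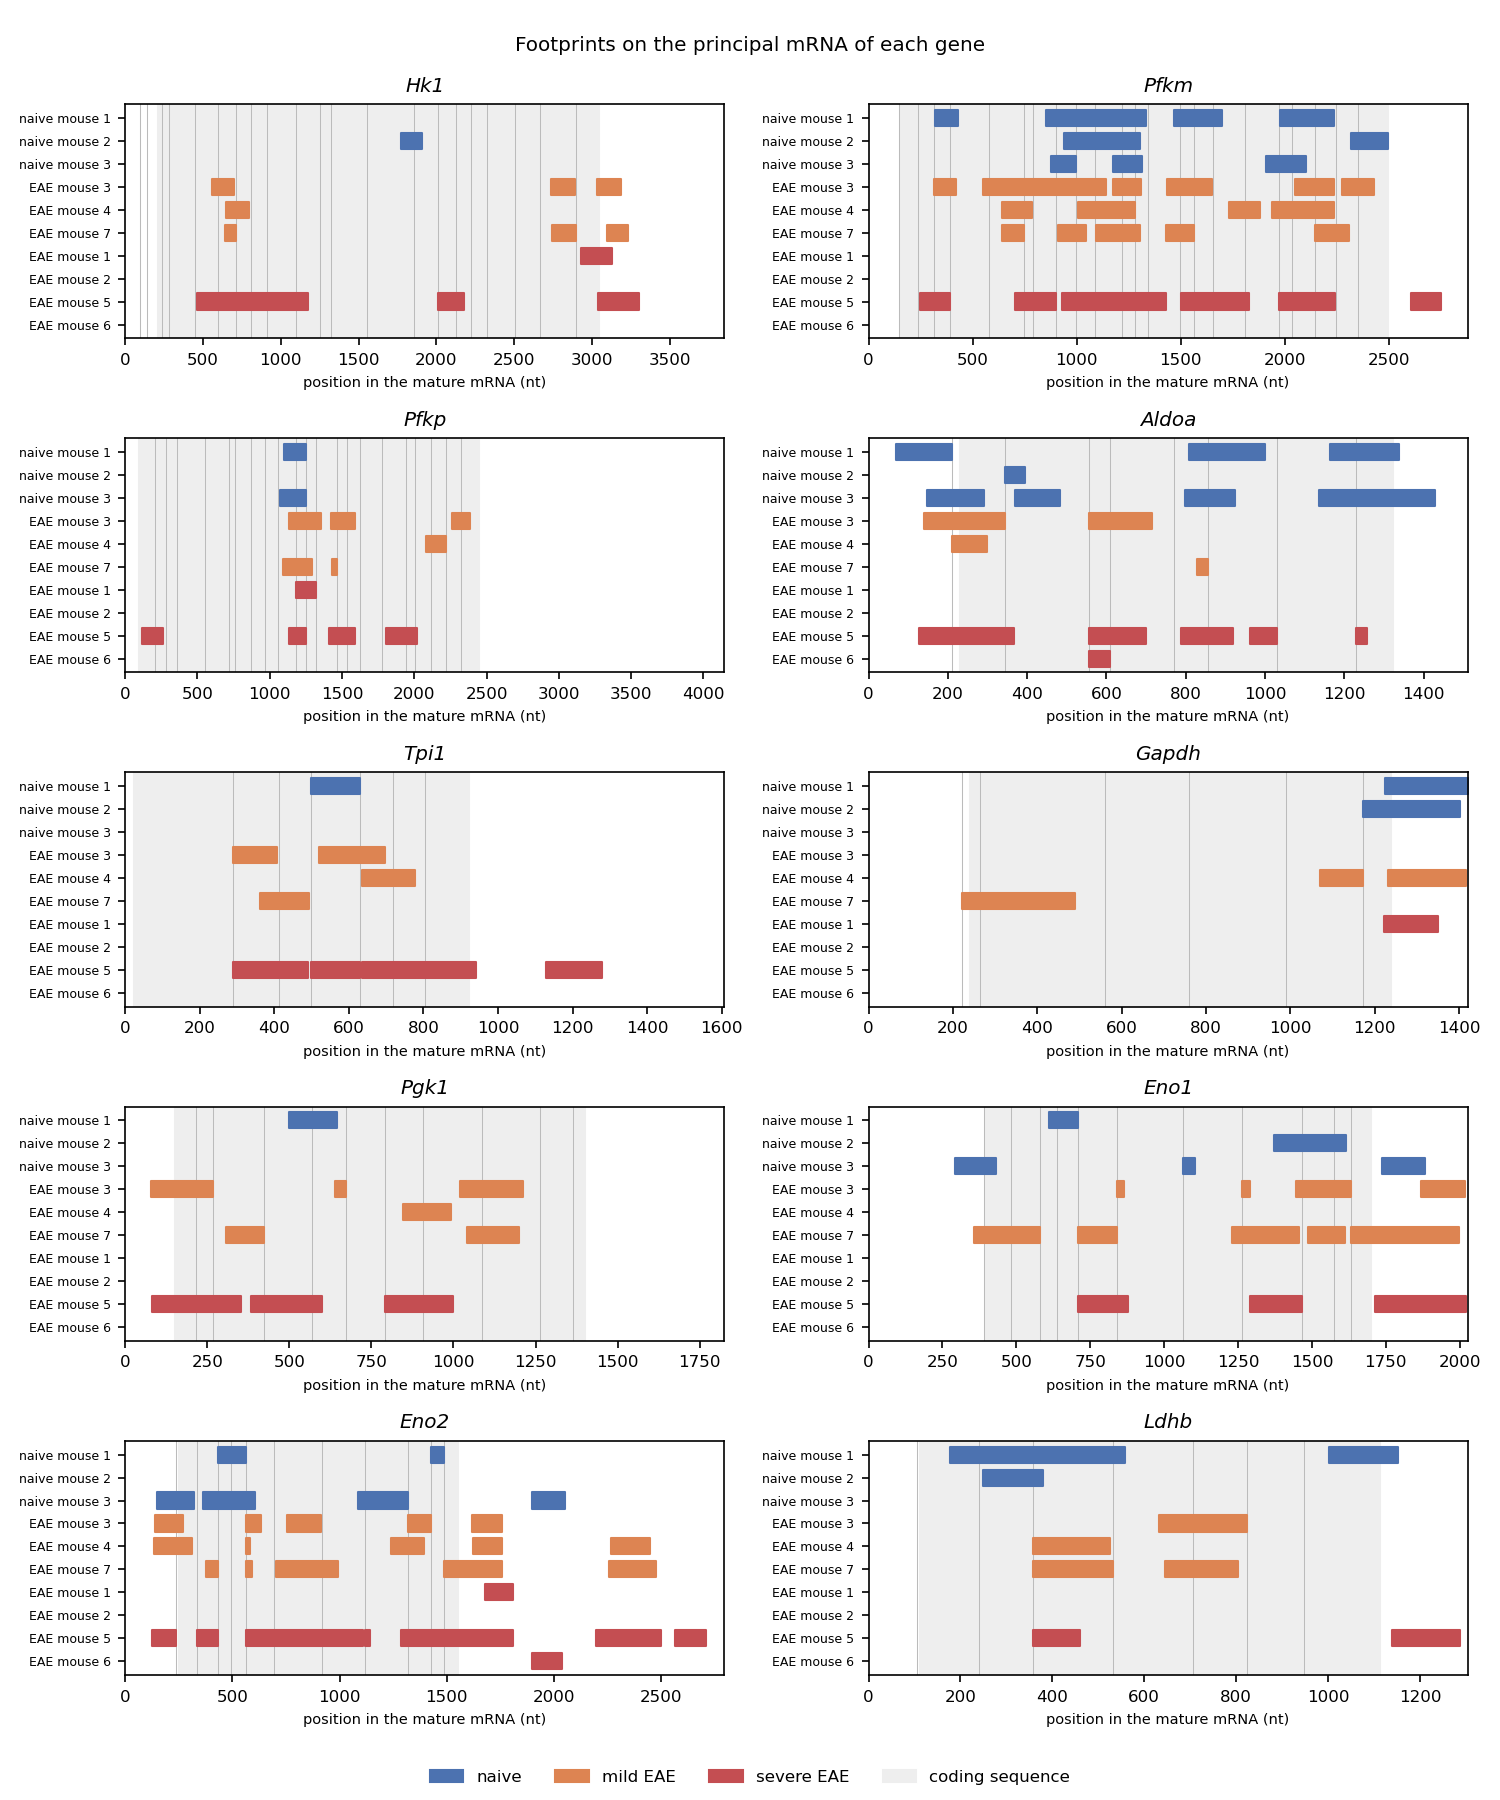
Footprints of each mouse along the mature mRNA of the principal transcript of the 10 genes (x axis, nt from the 5′ end), with 1 row per mouse colored by group, coding sequence shaded grey and exon junctions as thin lines. Footprints of Pfkm and Pfkp stack over the middle of the coding sequence, those of Gapdh over the 3′ end, and EAE mice 1, 2 and 6 are nearly empty.

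Hk1 encodes hexokinase 1, the main hexokinase of brain, and had 21 footprints in 6 mice (chr10:62268855-62379908, minus strand). In naïve mice 1, 2 and 3, 0, 244 and 0 nt were covered. In the mild EAE mice 3, 4 and 7, 457, 144 and 365 nt were covered, and in the severe EAE mice 1, 2, 5 and 6, 200, 0, 1151 and 0 nt. Thus all 3 mild EAE mice but only 1 naïve mouse had footprints, and the ranges overlapped because naïve mouse 2 exceeded EAE mouse 4. Of the 244 nt in naïve mouse 2, 139 nt lay in exons. The mean was 81.3 ± 141 nt (SD, n = 3) in naïve mice and 322 ± 161 nt (n = 3) in mild EAE, a difference of 241 nt (exact permutation test, p = 0.2). The last exon, which holds the 3′ UTR, had footprints in EAE mice 3, 7, 1 and 5.

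Pfkm, the gene with the most footprints (89), had footprints in 7 mice (chr15:98092589-98132451, plus strand). Naïve mice had 1077, 542 and 452 nt covered, the mild EAE mice 3, 4 and 7 had 1394, 868 and 754 nt, and EAE mouse 5 had 1585 nt. EAE mice 1, 2 and 6 had 0 nt. These lengths are 15.7% to 37.4% of the mRNA in naïve mice, 26.2% to 48.1% in mild EAE and 54.8% in EAE mouse 5, so that naïve and mild EAE mice overlapped. Mild EAE differed from naïve mice by 315 nt (1005 ± 341 against 690.3 ± 338, n = 3 each, exact p = 0.3). Pfkp had 36 footprints in 8 mice (chr13:6579768-6648777, minus strand). In naïve mice, 154, 245 and 176 nt were covered, in mild EAE 513, 137 and 376 nt, and in severe EAE 142 nt in EAE mouse 1, 936 nt in EAE mouse 5 and 0 nt in the other two. The 245 nt of naïve mouse 2 were wholly intronic, and its mRNA was not covered. The mean in mild EAE was higher by 150.3 nt (342 ± 190.3 against 192 ± 47.5, n = 3 each, exact p = 0.4).

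Aldoa, the aldolase of muscle and brain, was with Ldhb 1 of 2 genes whose mean was highest in naïve mice (chr7:126795234-126800751, minus strand). Naïve mice had 508, 52 and 678 nt covered, mild EAE mice 363, 93 and 27 nt, and the severe EAE mice 1, 2, 5 and 6 had 0, 0, 611 and 55 nt. The groups overlapped, as naïve mouse 2 was below 2 of the mild EAE mice. Mild EAE had a mean lower by 252 nt (161 ± 178 against 413 ± 324, n = 3 each, exact p = 0.3). The 6 stretches shared by naïve mice covered 378 nt, and mild EAE had 1 of 89 nt that overlapped none of them. That stretch lay in exon 2, where 3 footprints, from EAE mice 3, 4 and 5, also lay on an exon of Fam57b, a gene on the other strand, and reads of the 2 genes cannot be told apart without strand. Tpi1, triose phosphate isomerase, had 135, 0 and 0 nt covered in naïve mice, 294, 142 and 132 nt in mild EAE and 792 nt in EAE mouse 5, with 0 nt in the other severe EAE mice (chr6:124810586-124814296, minus strand). Its 3 mild EAE mice all had footprints, but EAE mouse 7, with 132 nt, lay just below naïve mouse 1. The difference was 144 nt (189 ± 90.8 against 45 ± 77.9, n = 3 each, exact p = 0.2).

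Gapdh, glyceraldehyde-3-phosphate dehydrogenase, had the fewest footprints (7, in 5 mice) (chr6:125161715-125166467, minus strand). Its mRNA is abundant in most cells. Sites also found in the input or IgG control were removed, so a low count need not mean little binding. Its 1 shared stretch had 40 near-identical copies in the genome. Whether either lowered the count was not tested. Of the 7 footprints, 4 had their midpoint in the 3′ UTR, and the last exon was footprinted in 2 naïve mice, EAE mouse 4 and EAE mouse 1. Covered lengths were 195, 231 and 0 nt in naïve mice, 0, 312 and 339 nt in mild EAE, and 128 nt in EAE mouse 1 alone among the severe EAE mice. The groups overlapped (217 ± 188 nt in mild EAE against 142 ± 124 nt in naïve mice, n = 3 each, exact p = 0.6). It was the only one of the 10 genes with a footprint in a severe EAE mouse but none in EAE mouse 5. Pgk1, phosphoglycerate kinase 1, makes the first ATP of the pathway and lies on the X chromosome (chrX:106187100-106203699, plus strand). Naïve mice had 146, 0 and 0 nt covered, mild EAE mice 411, 147 and 276 nt, and EAE mouse 5 had 695 nt, with 0 nt in EAE mice 1, 2 and 6. Pgk1 was the only gene of the 10 in which every mild EAE mouse was above every naïve mouse, by 1 nt between EAE mouse 4 and naïve mouse 1. Its means differed by 229 nt (278 ± 132 against 48.7 ± 84.3, n = 3 each, exact p = 0.1, below which this design cannot go, and adjusted p = 1). Its processed pseudogene Pgk1-rs7 had footprints in the same 5 mice.

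Of the enolases, Eno1 is the widely expressed gene and Eno2 the neuronal one, known as neuron-specific enolase. Eno1 had 104, 241 and 327 nt covered in naïve mice, 386, 0 and 1103 nt in the mild EAE mice 3, 4 and 7, and 794 nt in EAE mouse 5, with 0 nt in the other severe EAE mice (chr4:150236721-150248879, plus strand). All 12 exons were footprinted in at least 1 mouse, and the spread in mild EAE (496 ± 560 nt) exceeded the difference from naïve mice of 272 nt (224 ± 112, n = 3 each, exact p = 0.6). Eno2 had 45 footprints in 8 mice, the second largest number (chr6:124760053-124769673, minus strand). Naïve mice had 190, 0 and 836 nt covered, mild EAE mice 602, 669 and 864 nt, and the severe EAE mice 1, 2, 5 and 6 had 127, 0, 1867 and 143 nt. Mild EAE mice lay close together, and naïve mouse 3 lay within their range (712 ± 136 against 342 ± 438, n = 3 each, exact p = 0.3). Exon 12, which is mostly 3′ UTR, was footprinted in 7 mice, 1 naïve mouse, the 3 mild EAE mice and EAE mice 1, 5 and 6, and 11 of the 26 footprints in a 3′ UTR were on Eno2. Eno2 was the only member footprinted in 3 of the 4 severe EAE mice.

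Ldhb encodes the heart-type subunit of lactate dehydrogenase (chr6:142490249-142507957, minus strand). Naïve mice had 534, 247 and 0 nt covered, mild EAE mice 196, 167 and 333 nt, and EAE mouse 5 had 250 nt, with 0 nt in the other severe EAE mice. The mild EAE mean was 28.3 nt lower (232 ± 88.7 against 260.3 ± 267, n = 3 each, exact p = 0.8), with the mild EAE values inside the naïve range. The start of exon 4 was the most shared stretch, covered in naïve mice 1 and 2, EAE mice 4 and 7 and EAE mouse 5.

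Exon by exon, differences between naïve and mild EAE mice ran in both directions. Of the 133 exons of the 10 principal transcripts, 3 had footprints in every mild EAE mouse and in no naïve mouse (Hk1 exon 7, Pfkm exon 6 and Pgk1 exon 8), beside 0.485% of the 107292 exons of all genes tested, and 0 had the reverse, beside 0.162%. In at least 2 mild EAE mice and no naïve mouse there were 14, beside 2.74% of all exons, spread over Hk1, Pfkm, Pfkp, Tpi1, Pgk1, Eno2 and Ldhb. In at least 2 naïve mice and no mild EAE mouse there were 7, beside 1.36%, namely exons 3, 7, 8 and 9 of Aldoa, exons 4 and 5 of Eno2 and exon 3 of Ldhb. Of these 7, 4 had no footprint in severe EAE either (Aldoa exon 8, both Eno2 exons and Ldhb exon 3). Exons of 1 gene share contigs, and most exons of all genes had no footprint, so no test was made of these counts, which were chosen after the values were seen.

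**Figure D4:**
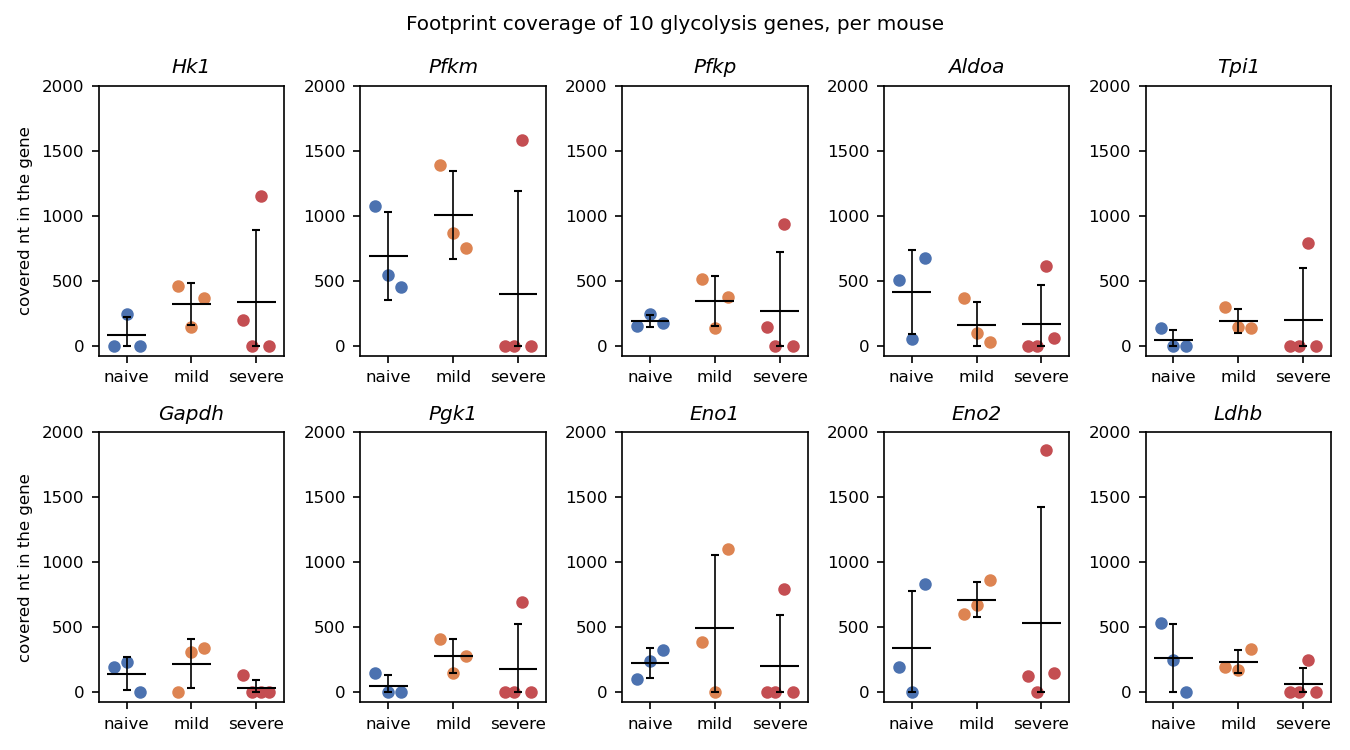
Covered nt in each of the 10 genes, with 1 point per mouse for 3 naïve, 3 mild EAE and 4 severe EAE mice, the group mean as a line and the SD as bars, drawn no lower than 0. In severe EAE, 1 mouse (EAE mouse 5) lies far above the others in every gene but Gapdh.

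To ask whether coverage of these genes differed in disease, the covered length of every gene was compared between groups by two-sided exact permutation tests over the mice, with Benjamini-Hochberg adjustment over all 9195 genes. No member passed an adjusted p of 0.05 in any of the 3 comparisons, and neither did any other gene, so that 0% of genes were called between all EAE and naïve mice (smallest adjusted p 0.613), between mild EAE and naïve mice (1) and between severe EAE and naïve mice (0.883). The designs could give no p below 0.00833, 0.1 and 0.0286. At an unadjusted exact p under 0.05, 0 of the 10 members were called in each comparison, where 4.52% of all genes were called between all EAE and naïve mice, 2.52% between severe EAE and naïve mice, and none between mild EAE and naïve mice. In mild EAE, 1 of 10 members (Pgk1) had every mouse above every naïve mouse, beside 3.84% of all genes, and 0 of 10 had every mouse below, beside 3.85%. By the mean, 8 of 10 members were higher in mild EAE than in naïve mice, beside 51.5% of all genes, and the median difference was 189.8 nt for the members and 2.67 nt for all genes. All genes include those footprinted in only 2 mice, whereas each member was footprinted in 5 to 8. Medians in nt therefore compare genes of unlike coverage, here and below. The tally depended on the scale. In mild EAE, 9 of 10 were higher per 1000000 covered nt of the mouse, beside 53.3% of all genes, but 5 of 10 per 1000000 mapped unique reads, beside 32.7%. For all EAE mice, 6 of 10 had a higher mean, beside 40.3% of all genes, with median differences of 106 and −20.2 nt, and these were 8 of 10 per 1000000 covered nt and 4 of 10 per 1000000 mapped unique reads, beside 43.0% and 24.4%. For severe EAE, 5 of 10 had a higher mean, beside 31.7%, with median differences of 26.2 and −40 nt. Without EAE mouse 5, 0 of 10 had a higher mean in severe EAE, beside 4.99% of all genes, with median differences of −184 and −86.3 nt. With it, the count was 7 of 10 per 1000000 covered nt and 3 of 10 per 1000000 mapped unique reads, beside 30.2% and 17.8%. The exact p of the members ran from 0.267 to 0.925 for all EAE mice, from 0.1 to 0.8 for mild EAE and from 0.257 to 1 for severe EAE, and every adjusted p was 1. These comparisons share the naïve mice, and the 10 genes were chosen with earlier results of these data known.

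In 4 genes the sign of the difference from naïve mice was the same under every scale, filter and left-out mouse that was tried for mild EAE and for all EAE mice, though not for severe EAE. Some settings add nothing to this: the gene filters could not turn a sign. The upper length limit and the wider spans changed no member value in these comparisons. Hk1, Tpi1 and Pgk1 had a higher and Aldoa a lower mean than naïve mice, both in mild EAE and over all EAE mice, and Eno2 had a higher mean in mild EAE. For severe EAE the signs of Hk1, Pfkp, Tpi1, Pgk1 and Eno2 turned to lower than naïve without EAE mouse 5. Pfkm and Ldhb kept a lower mean in severe EAE than in naïve mice under all 17 settings tried. Both genes had 0 nt covered in EAE mice 1, 2 and 6, whose lists were short. No setting for severe EAE left those mice out together. In EAE mouse 5, Pfkm had 1585 nt, above every naïve mouse, and Ldhb 250 nt, within the naïve range. Beside these differences, the leukocyte and microglia markers went from 0 footprinted in naïve mice to 3 to 5 of 6 in mild EAE. The covered length of the neuronal markers, not scaled to the list, was lower in every mild EAE mouse than in any naïve mouse. The part of these markers in the result was not tested.

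Summed over the 10 genes, 3043, 1802 and 2469 nt were covered in naïve mice (2438 ± 621, SD, n = 3) and 4616, 2679 and 4569 nt in the mild EAE mice 3, 4 and 7 (3955 ± 1105, n = 3). The severe EAE mice 1, 2, 5 and 6 had 597, 0, 8681 and 198 nt (2369 ± 4215, n = 4). Naïve and mild EAE mice overlapped, since EAE mouse 4 lay below naïve mouse 1, and without EAE mouse 5 the severe EAE mean was 265 ± 304 nt. Per 1000000 covered nt of the mouse, which takes the length of each list into account, the 10 genes held 1371, 877 and 1129 nt in naïve mice, 2981, 2317 and 1530 nt in mild EAE, and 1808, 0, 2096 and 2605 nt in severe EAE. On this scale 6 of the 7 EAE mice lay above all 3 naïve mice, and EAE mouse 2 lay below. The values of EAE mice 1, 2 and 6 rest on 5, 0 and 2 footprints on the 10 genes. The scale also reflects what else is on the lists. Exons made up 43.2% to 55.1% of the covered nt in naïve mice, 56.8% to 73.7% in mild EAE and 50.2% to 63.0% in severe EAE. Per 1000000 exonic covered nt, a scale added after the data were seen, the values were 3158, 1479 and 2047 in naïve mice, 4032, 4072 and 2396 in mild EAE, and 2916, 0, 3322 and 4139 in severe EAE, and the naïve and EAE mice overlapped. Per 1000000 mapped unique reads, the mild EAE mean was 614 ± 181 and the naïve mean 597 ± 155 nt, so that the ratio of mild EAE to naïve of 1.62 dropped to 1.03. On this scale naïve mice 1, 2 and 3 had 554, 769 and 468 nt and EAE mice 3, 4 and 7 had 817, 469 and 554 nt. Naïve mouse 2, the lowest naïve mouse in nt, was thus the highest naïve mouse here. The ratio without naïve mouse 2 was not computed on this scale. The ratio of severe EAE to naïve was 0.972 in nt, 1.45 per 1000000 covered nt and 0.396 per 1000000 mapped unique reads. No p was computed for the sums, because the genes were chosen with results known.

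Stretches shared by mice of a group show which positions recurred. A stretch was counted when at least 2 mice of a group covered the same run of more than 1 nt. The 10 genes held 21 shared stretches in naïve mice (1531 nt), 39 in mild EAE (3079 nt) and 4 in severe EAE (338 nt). At least 1 stretch was found in 6 of 10 members in naïve mice, beside 30.7% of all 9195 genes, in 9 of 10 in mild EAE, beside 36.7%, and in 4 of 10 in severe EAE, beside 9.76%. All genes again include those footprinted in only 2 mice, whereas each member was footprinted in 5 to 8. These shares thus compare genes of unlike coverage, and widely footprinted genes can more easily hold a shared stretch. All but 2 of the naïve stretches and all but 5 of the mild EAE ones lay in coding sequence. In severe EAE, 2 were coding (Pfkp exon 11 and Aldoa exon 4) and 2 lay in a 3′ UTR (Hk1 and Eno2). Of the 21 naïve stretches, 9 overlapped a mild EAE stretch, and these lay in Pfkm (6), Pfkp (2) and Ldhb (1). A single position was shared within all 3 groups, the whole of Pfkp exon 11. Pfkm had the most stretches, 8 in naïve mice and 12 in mild EAE, but none in severe EAE, where EAE mouse 5 alone had footprints on it. Hk1, Tpi1, Pgk1 and Eno1 had stretches in mild EAE (3, 2, 2 and 5) and none in naïve mice, and Gapdh had 1 in naïve mice and none in mild EAE. These counts depend on single mice: the naïve count was 5 without naïve mouse 1 and 8 without naïve mouse 3, the mild EAE count was 10 without EAE mouse 3 and 16 without EAE mouse 7, and the severe EAE count was 1 without EAE mouse 1 and 0 without EAE mouse 5.

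**Figure D5:**
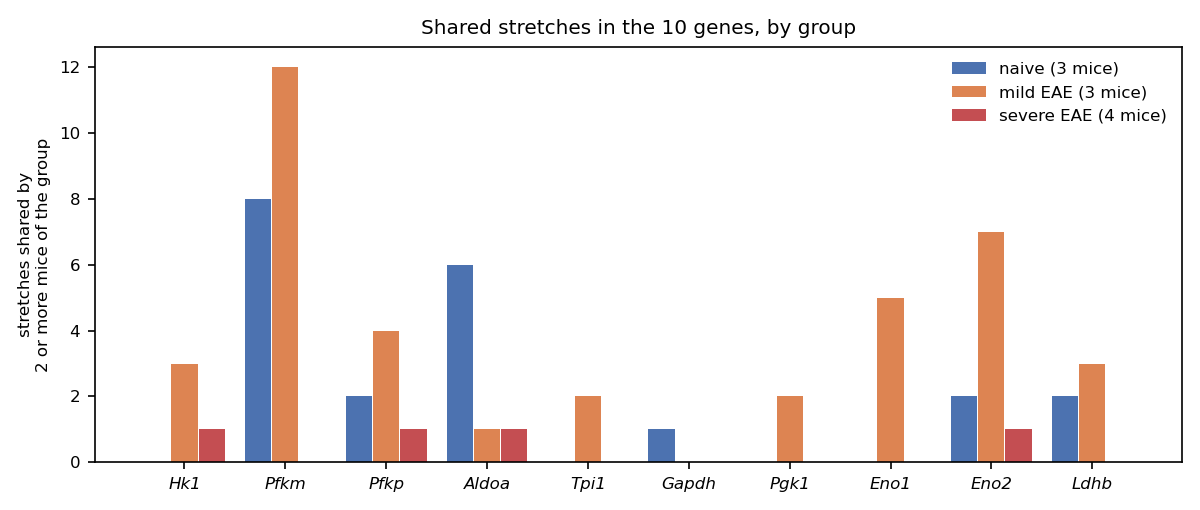
Number of stretches covered in at least 2 mice of a group in each of the 10 genes, for naïve (3 mice), mild EAE (3 mice) and severe EAE (4 mice). Pfkm has 8 naïve and 12 mild EAE stretches, and the severe EAE bars are at 1 or 0.

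Several of these genes have near-identical copies, which limits where a contig can be placed. Of 63 shared stretches of at least 20 nt, 21 had a copy elsewhere in the genome by the definition above. These were 7 of 8 stretches in Aldoa, both in Tpi1, the 1 in Gapdh, both in Pgk1, all 4 in Eno1, 1 of 10 in Eno2 and 4 of 5 in Ldhb, and none in Hk1, Pfkm or Pfkp. The Gapdh stretch had 40 such copies. Copies carried footprints too. Pgk1-rs7, a processed pseudogene of Pgk1 on chromosome 12, had 146, 0 and 0 nt covered in naïve mice, 315, 284 and 451 nt in the mild EAE mice 3, 4 and 7 and 416 nt in EAE mouse 5, the mice in which Pgk1 was footprinted, with an equal 146 nt in naïve mouse 1. Eno1b, a relative of Eno1 on chromosome 18, had 96, 241 and 289 nt in naïve mice, 333, 0 and 960 nt in mild EAE and 680 nt in EAE mouse 5, again the same mice as Eno1. Aldoa-ps4 had 115 nt in naïve mouse 3 and 142 nt in EAE mouse 1. Values of Pgk1 and Eno1 can thus hold RNA of their copies, and the reverse. Of the other 5 annotated relatives, Gapdh-ps15 had 137 nt covered in 1 mouse, although the annotation places it on the Y chromosome and all mice were female by their labels, and the rest had none.

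Among 25 other genes of glucose metabolism (remaining glycolytic isoforms, glucose and lactate transporters, and enzymes around pyruvate dehydrogenase), 19 were footprinted in at least 1 mouse and 12 in at least 2. None of the 12 passed an adjusted p of 0.05 in any comparison (smallest 0.880, exact permutation tests), nor an unadjusted p of 0.05. Against naïve mice, the mean was higher in 4 and lower in 8 for all EAE mice, higher in 7 and lower in 5 for mild EAE, and higher in 3 and lower in 9 for severe EAE, where 40.3%, 51.5% and 31.7% of all genes were higher. The 4 with the most covered nt were Gpi1 (6762 nt over 8 mice), which encodes the isomerase between hexokinase and phosphofructokinase, Pkm (4379 nt, 6 mice), pyruvate kinase of muscle and brain, Pfkl (2474 nt, 6 mice), and Aldoc (2371 nt, 5 mice), the aldolase of brain. For Gpi1, means were 734 ± 256 nt in naïve mice, 1018 ± 402 nt in mild EAE and 376 ± 656 nt in severe EAE (SD, n = 3, 3 and 4), which was 50 ± 86.6 nt without EAE mouse 5. Slc2a3, the neuronal glucose transporter, and the lactate transporters Slc16a3 and Slc16a7 had no footprint in any mouse. The glucose transporter Slc2a1 had footprints in 4 mice (1429 nt) and the lactate transporter Slc16a1 in 2 (677 nt). Ldha, the partner subunit of Ldhb, had none in naïve mice and footprints in 2 mild EAE mice and 1 severe EAE mouse.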

How the data were processed

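Anti-hnRNP A1 immunoprecipitations of 10 mouse spinal cords were used, and the 10 inputs and 2 IgG pools were not analysed here. The authors trimmed reads with fastp. Contigs built by rnaSPAdes were placed on GRCm38 with minimap2 2.17 in spliced mode, sites of the matched input and pooled IgG were subtracted, and overlaps were merged with bedtools. The deposited lists hold start and end positions, without strand, score or read count, so the depth behind a footprint is unknown. An unlisted site was not necessarily unbound. Groups follow the clinical scores of the labels, and the members, gene lists and markers were chosen with earlier results of these data known. The value was covered nt per gene and mouse, for GENCODE release 21 spans. Differences of group means were tested by exact permutation of the mice (two-sided), with Benjamini-Hochberg adjustment over 9195 genes footprinted in at least 2 mice, and the scripts were tested on simulated data. Each footprint was classed by its midpoint (coding sequence first, then UTR, non-coding exon, intron), and exon positions refer to 1 principal transcript per gene. All 10 members are named, whatever their values. From the 25 other glucose genes, the 4 with the most covered nt were to be named, and relatives footprinted in at least 2 mice. Pfkl exon 11, Slc2a1, Slc2a3, Slc16a1, Slc16a3, Slc16a7, Ldha and Gapdh-ps15 were named after their values were seen. Alternatives were scales (per 1000000 covered nt, per 1000000 mapped unique reads, log2), limits on footprint length, wider spans, exons only, gene filters, the mouse number as a replicate block, and 1 mouse at a time left out. Chosen after seeing the data were the fit without EAE mice 1, 2 and 6, the exonic scale, the tally without EAE mouse 5, the exon counts, the search for copies and the percent of each mRNA region covered. Python 3.11.15, numpy 2.4.6, scipy 1.17.1 and blastn 2.17.0 were used, and plots were drawn with matplotlib 3.10.9.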

Additional observations from a re-analysis of the deposited data

Results flagged for a closer look

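In the severe EAE group of 4 mice, 10 of 12 values examined had 1 mouse apart from the other 3 by a gap beyond Dixon's 95% critical value for a group of that size. For continuous values chance gives this in about 1 group in 20. That rate does not apply here, since in 6 of the 10 (Pfkm, Tpi1, Gapdh, Pgk1, Eno1 and Ldhb) the other 3 mice were all at 0, which makes the gap the whole range. In 9 of them the mouse was EAE mouse 5. It had 1585 nt covered in Pfkm, 936 in Pfkp, 611 in Aldoa, 792 in Tpi1, 695 in Pgk1, 794 in Eno1, 1867 in Eno2 and 250 in Ldhb, and 8681 nt summed over the 10 genes. The 10 values are not independent, since they come from the same 4 lists, and EAE mouse 5 also has the longest list (31870 footprints). The exception was Gapdh, with 128 nt in EAE mouse 1 and 0 nt in the other 3. Hk1 (1151 nt in EAE mouse 5) had a gap of 0.826 of the range, just under the limit. Per 1000000 covered nt of the mouse, the sum over the 10 genes in EAE mouse 5 was 2096, between those of EAE mice 1 and 6 (1808 and 2605).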

How the results depend on the processing

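No gene passed an adjusted p of 0.05 in any comparison under any alternative, with smallest adjusted p values of 0.145 to 1 for all EAE, 0.754 to 1 for mild EAE and 0.318 to 1 for severe EAE against naïve mice, and leaving out each mouse gave 0 to 0 genes. Shared stretches in at least 3 mice of a group numbered 4 in naïve, 9 in mild EAE and 0 in severe EAE mice. Leaving out 1 mouse gave 5 to 16, 10 to 31 and 0 to 4. The ratio of summed covered nt was 1.43 to 1.88 for mild EAE over naïve without 1 mouse, 1.03 per 1000000 mapped unique reads and 1.57 per 1000000 exonic covered nt, and for severe EAE over naïve it was 0.109 (without EAE mouse 5) to 1.30 without 1 mouse, 1.45 per 1000000 covered nt and 0.396 per 1000000 mapped unique reads. The coding share by covered nt was 76.2% in naïve, 79.0% in mild EAE and 68.2% in severe EAE mice, and without 1 mouse the shares were 77.6% to 87.9% in naïve, 85.1% to 88.6% in mild EAE and 57.1% to 81.2% in severe EAE mice. The causes were not tested.
Over the 10 genes, the sign of the difference turned in 17 of 210 values for all EAE, 10 of 150 for mild EAE and 20 of 170 for severe EAE against naïve mice. These totals include settings that could not turn a sign. The gene filters leave the difference of a member as it is. The upper length limit of 1000 nt and the wider spans changed no member value for all EAE or mild EAE. Per 1000000 covered nt the turned values were 8.04 for Pfkm and 43.4 for Gapdh (all EAE), 7.24 for Ldhb (mild), and 29.8 for Aldoa and 30.2 for Gapdh (severe). Per 1000000 mapped unique reads they were −16.3 for Pfkp and −21.9 for Eno1 (all EAE), −7.42 for Pfkm, −1.79 for Pfkp and −12.7 for Gapdh (mild), and −27.2 for Pfkp and −8.60 for Eno2 (severe). On the log2 scale they were −1.60 for Pfkp and −3.62 for Eno1 (all EAE), −1.43 for Eno1 and 2.13 for Ldhb (mild), and −3.30 for Pfkp and −0.0392 for Pgk1 (severe). In exons only, Ldhb stood at 10 nt (mild), and without EAE mice 1, 2 and 6, Pfkm stood at 459.9 and Gapdh at 20.8 nt (all EAE). Leaving out 1 mouse turned the sign of Pfkm (−188 to 160.3 nt), Gapdh (−102 to 13.8), Eno1 (−27.3 to 156.5) and Ldhb (−255 to 11.6) for all EAE, of Eno1 (−31 to 520.5) and Ldhb (−158.5 to 108.5) for mild EAE, and of Hk1 (−14.7 to 369), Pfkp (−144 to 168), Tpi1 (−45 to 219), Pgk1 (−48.7 to 183), Eno1 (−224 to 40.7) and Eno2 (−252 to 439) for severe EAE.
The mouse numbers name different animals in the groups, and deviations of same-numbered mice correlated at 0.00153, 0.0754 and −0.00799 over genes, so they do not pair the mice. With the number as a replicate block, 0 genes passed for all EAE, and the turned values were −95.3 nt for Eno1 and −99 nt for Eno2 (all EAE), and −22 for Hk1, −128.5 for Pfkp, −67.5 for Tpi1, −73 for Pgk1 and −31.5 for Eno2 (severe, without a test). The lists of EAE mice 1, 2 and 6 were short, so values of severe EAE rest mainly on EAE mouse 5.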
